A study of Mus musculus with 4 samples.

Results

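The 6 genes described here encode regulators that hold or shape the double positive (DP) stage of thymocyte development, at which a developing T cell carries both CD4 and CD8. They were chosen by name: Tcf7, Lef1, Satb1, Bcl11b, Myb and Arpp21. All 6 were among the 24984 genes of the deposited table and among the 11625 with a mean of at least 1 CPM, where CPM is the number of fragments falling on a gene out of every 1000000 in the library. The measurement was TTchem-seq, in which RNA made during a pulse of 4-thiouridine is fragmented, enriched and sequenced, so that fragments over the whole gene, introns included, are meant to report newly made RNA rather than the RNA store of the cell. The sources differ on the library step, since the labels describe capture of polyadenylated RNA and the study's methods describe depletion of ribosomal RNA.

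The libraries came from DP thymocytes of 2 genotypes, with 2 libraries each, and the labels do not say whether each library was 1 animal. The wild-type libraries (WT, genotype Tox4;F/F) carried floxed Tox4 alleles, and the conditional knockout libraries (cKO, genotype Tox4;F/F;Lck+) carried in addition a Cre transgene which, per the study, is driven by the proximal Lck promoter, acts from the double negative stage onwards and removes exons 4 to 6. Per the study, mice were gender-matched littermates of 6 to 8 weeks on a C57BL/6 background. Cells of both genotypes were, also per the study, held in fresh medium for 0.5 hours before labelling. Deletion of Tox4 and presence of the Cre transgene cannot be told apart. How the DP cells of these libraries were purified is not given in the sources used here. Since these are bulk samples, a change in the makeup of the cells and a change of transcription per cell cannot be told apart. The p-values measure the spread between these libraries.

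TCF-1, encoded by Tcf7, and LEF-1 are HMG-box factors that bind a shared DNA motif, recruit β-catenin or Groucho/TLE corepressors, and together keep DP cells alive long enough to rearrange the T cell receptor α locus. BCL11B is a zinc finger factor of T lineage commitment that works with the NuRD chromatin remodelling complex. SATB1 organises chromatin loops and acts at the enhancers of DP cells. MYB is a DNA-binding activator that recruits CBP and p300 and is needed for the survival of preselection DP cells. Arpp21 encodes an RNA-binding protein that is abundant in DP thymocytes and brain, and an intron of the gene hosts the microRNA miR-128.

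All promoters and microRNAs below were taken from RefSeq on build GRCm38 (mm10), the build of the table, and are written 5′ to 3′ on the strand of the gene. The promoter windows run from 250 bases before to 50 bases after an annotated start. They need not be the outermost starts, since the RefSeq intervals of Tcf7 and Bcl11b reach further 5′, to 52283383 and 108004145. Those of Tcf7 and Myb are shown since these genes were called, that of Bcl11b since it had the lowest adjusted p of the other 4, and the miR-128 sequences since they lie within the transcribed unit of Arpp21. Capitals in the promoters mark matches, on either strand, to CTTTGA (the core bound by TCF/LEF), AACGG or AACTG (MYB), TGTGGT (RUNX), CGGAAG (ETS) and CAGCTG (E box). Capitals in the microRNAs mark the seed, bases 2 to 8.
Tcf7, first window, chr11:52282965-52283264, minus strand: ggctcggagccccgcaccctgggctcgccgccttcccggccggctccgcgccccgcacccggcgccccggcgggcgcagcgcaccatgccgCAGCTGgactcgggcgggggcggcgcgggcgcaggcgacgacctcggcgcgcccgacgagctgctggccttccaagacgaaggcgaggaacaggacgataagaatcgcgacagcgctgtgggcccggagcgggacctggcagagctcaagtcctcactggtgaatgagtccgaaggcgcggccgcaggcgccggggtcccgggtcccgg
Tcf7, second window, chr11:52282546-52282845, minus strand: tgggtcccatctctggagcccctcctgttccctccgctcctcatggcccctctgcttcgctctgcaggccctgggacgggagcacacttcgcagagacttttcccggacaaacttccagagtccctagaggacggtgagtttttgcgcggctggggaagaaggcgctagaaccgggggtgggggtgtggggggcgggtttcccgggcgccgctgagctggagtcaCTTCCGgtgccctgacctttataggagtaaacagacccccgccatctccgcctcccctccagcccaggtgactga
Myb, chr10:21160935-21161234, minus strand: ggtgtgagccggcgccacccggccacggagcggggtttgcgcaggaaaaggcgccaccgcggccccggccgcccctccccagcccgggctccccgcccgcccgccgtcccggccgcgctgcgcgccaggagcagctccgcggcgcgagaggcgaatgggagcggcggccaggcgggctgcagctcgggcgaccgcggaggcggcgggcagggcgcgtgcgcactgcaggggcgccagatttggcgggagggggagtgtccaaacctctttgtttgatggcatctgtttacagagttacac
Bcl11b, chr12:108003365-108003664, minus strand: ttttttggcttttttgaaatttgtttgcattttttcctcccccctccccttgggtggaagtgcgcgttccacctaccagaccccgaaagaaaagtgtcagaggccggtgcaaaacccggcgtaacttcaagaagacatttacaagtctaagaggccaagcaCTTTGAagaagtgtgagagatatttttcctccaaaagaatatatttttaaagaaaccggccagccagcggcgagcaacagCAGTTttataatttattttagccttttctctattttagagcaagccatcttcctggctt
mmu-miR-128-3p, chr9:112118644-112118664, minus strand: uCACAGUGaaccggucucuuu
mmu-miR-128-2-5p, chr9:112118679-112118701, minus strand: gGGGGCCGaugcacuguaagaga

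The first Tcf7 window held an E box match and the second an ETS match, and both windows lie inside the RefSeq interval of the gene. The Myb window held no match to any of these motifs. The Bcl11b window held a TCF/LEF match and a MYB match, which did not overlap each other. The 6 genes had 22 promoter windows in all, some of which overlap within Arpp21, within Lef1 and within Satb1. The TCF/LEF core was in 6 of the 22 windows (27.3%), against 16.0% of all 32851 windows, and these 6 belonged to Arpp21, Bcl11b and Lef1. The MYB motifs were in 11 windows (50%, against 55.1% of all), the RUNX motif in 3 (13.6%, against 16.8%), the ETS motif in 3 (13.6%, against 16.9%) and the E box in 6 (27.3%, against 16.3%). Windows of one gene share sequence, so these shares are descriptions and a match is not a bound site. The Myb window and the first Tcf7 window were rich in G and C, at 75.0% and 76.3%, against a median of 52.7% over all windows, while the Bcl11b window was at 43.0%.

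The fragment totals ran from 38429786 to 48690591 per library, and the 6 genes together took 1.64 to 1.83% of each. The replicates differed by more than counting noise. Tox4 itself gave 74.0 and 70.3 CPM for WT replicates 1 and 2 and 59.3 and 57.2 CPM for cKO replicates 1 and 2, a log2 change of -0.31 with a standard error (SE) of 0.0998 and an adjusted p of 0.0453 by DESeq2. The adjusted p of Tox4 was 0.122 by edgeR and 0.126 by limma voom among genes with a mean of at least 1 CPM. Fragments over the whole gene include those outside the deleted exons, so this value does not measure how complete the deletion was. The DP markers Cd4, Cd8a, Cd8b1, Rag1, Rag2, Ptcra and Cd3e were all above 1 CPM and summed to 2453 to 3210 CPM, with Cd8a and Rag1 called lower in the cKO libraries. Summed B cell markers were at 12.2 to 14.2 CPM and myeloid markers at 9.45 to 12.3 CPM. Erythroid markers were at 0.013 to 0.729 CPM. Libraries stood apart in Xist, which had 172 CPM in WT replicate 1 and no more than 2.36 CPM elsewhere. The labels give no sex for any library, and the part of sex in the results was not tested. In addition, 16 proliferation genes summed to 498 CPM in WT replicate 1 against 754 CPM in WT replicate 2 and 871 and 751 CPM in the cKO replicates.

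Of the 6 regulators, Myb rose and Tcf7 fell in the cKO libraries, while Lef1, Satb1, Bcl11b and Arpp21 did not pass the test. Myb was 1.42-fold higher and Tcf7 fell by 0.33 on the log2 scale. A gene was called at an adjusted p under 0.05 by DESeq2, adjusted over the genes of the whole table that its independent filtering by mean count kept, if it also changed by 1.2-fold or more and averaged 1 CPM or more. Of all 11625 genes, 3.71% were called (2.14% increased and 1.57% decreased), so that the 1 increased and 1 decreased of 6 stand beside these shares. The median log2 change of the 6 was 0.14, against 0.000876 over all genes.

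**Figure D1:**
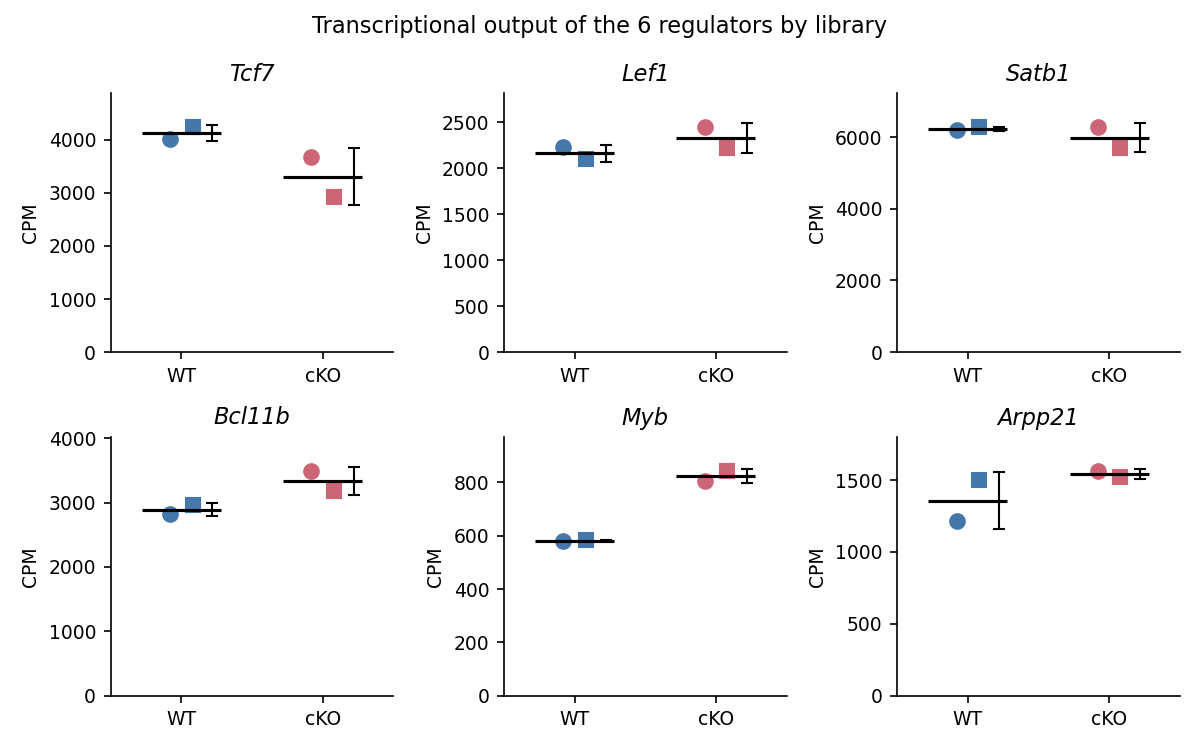
CPM of each of the 6 regulators in the 4 libraries, each panel with its own linear axis from 0; points are libraries and bars are the mean of the 2 libraries of a genotype. Both cKO libraries of Myb lie above both WT libraries (807 and 844 against 579 and 584 CPM), and both cKO libraries of Tcf7 lie below them, with cKO replicate 2 the lowest at 2919 CPM.

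Myb, on chromosome 10 (21124930 to 21160984, minus strand, 36055 bp), gave 579 and 584 CPM with the WT genotype, against 807 and 844 CPM with the cKO genotype. Replicates of each genotype lay close together and the genotypes did not overlap. The part of proliferating cells, whose genes summed to 498 and 754 CPM in the WT libraries and 871 and 751 CPM in the cKO libraries, was not tested. The mean went from 581 ± 3.19 (SD, n = 2) to 825 ± 26.2 CPM (SD, n = 2). The log2 change was 0.50 with an SE of 0.0698, a 95% interval of 0.37 to 0.64 and an adjusted p of 3.91e-10 by DESeq2. With genes under a mean of 1 CPM left out of the fit, the edgeR quasi-likelihood test gave an adjusted p of 0.0280 and limma voom 0.0247, tests which called 0.654% and 0.628% of all genes. Over the 12 alternatives with all libraries the adjusted p of Myb ran from 1.45e-15 to 0.0280 by these tools.

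Tcf7, on chromosome 11 (52252283 to 52283014, minus strand, 30732 bp), gave 4019 and 4236 CPM with the WT genotype, against 3679 and 2919 CPM with the cKO genotype. Both cKO libraries were lower, and they differed from each other by more than the WT libraries did. The mean went from 4127 ± 153 to 3299 ± 537 CPM (SD, n = 2 each). The log2 change was -0.33 with an SE of 0.0943, a 95% interval of -0.51 to -0.14 and an adjusted p of 0.0174 by DESeq2. The call depended on the tool: among genes with a mean of at least 1 CPM the adjusted p was 0.237 by edgeR and 0.192 by limma voom, and over the 12 alternatives with all libraries it ran from 2.49e-13 (edgeR over all genes) to 0.237. It also depended on single libraries. The log2 change was -0.17 without cKO replicate 2 (DESeq2 adjusted p 0.910) and -0.49 without cKO replicate 1 (0.00175), and the gene was not called without WT replicate 1 (-0.37, 0.991) or WT replicate 2 (-0.28, 0.900), fits in which the lone library is assumed to vary like the others.

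Lef1, the partner of Tcf7 in the same factor family, lies on chromosome 3 (131110297 to 131224357, plus strand, 114061 bp) and gave 2224 and 2096 CPM with the WT genotype, against 2444 and 2213 CPM with the cKO genotype. The genotypes overlapped, since cKO replicate 2 lay below WT replicate 1. The mean was 2160 ± 90.6 CPM for WT and 2328 ± 163 CPM for cKO (SD, n = 2 each), with a log2 change of 0.11 (SE 0.0735, 95% interval -0.04 to 0.25, adjusted p 0.577 by DESeq2). Per kb of gene, the ratio of Tcf7 to Lef1 was 6.71 and 7.5 for WT, against 5.59 and 4.90 for cKO. Both cKO ratios were thus lower than both WT ratios, a description that was not tested and that contains the change of Tcf7.

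Satb1, on chromosome 17 (51736187 to 51833290, minus strand, 97104 bp), had the second highest CPM of all genes, with WT values of 6187 and 6269 CPM and cKO values of 6276 and 5702 CPM. The genotypes overlapped, and cKO replicate 2 was the lowest library. The log2 change was -0.06 (SE 0.0707, adjusted p 0.809 by DESeq2), with a 95% interval of -0.20 to 0.08.

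Bcl11b, on chromosome 12 (107910403 to 108003414, minus strand, 93012 bp), gave 2818 and 2962 CPM with the WT genotype, against 3494 and 3178 CPM with the cKO genotype. The cKO libraries were both higher than either WT library, which was also so for 24.9% of all genes. The mean was 2890 ± 102 CPM for WT and 3336 ± 223 CPM for cKO (SD, n = 2 each). The log2 change of 0.20 (SE 0.0731, 95% interval 0.06 to 0.35) did not pass the test, with an adjusted p of 0.0955 by DESeq2.

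Arpp21, on chromosome 9 (112065091 to 112235985, minus strand, 170895 bp), gave 1216 and 1499 CPM with the WT genotype, against 1565 and 1520 CPM with the cKO genotype. WT replicate 1 lay apart from the other 3 libraries, which were close together, and it was also the library with high Xist and the lowest sum of proliferation genes; the part of these in the level of Arpp21 was not tested. The log2 change was 0.18 (SE 0.0927, 95% interval -0.00 to 0.36, adjusted p 0.353 by DESeq2). Over the 12 alternatives with all libraries the adjusted p of Arpp21 ran from 0.00822 (edgeR over all genes) to 0.705 (DESeq2 with the replicate block). The log2 change stayed under the 1.2-fold minimum in all of these. With WT replicate 1 left out it was 0.03, and with WT replicate 2 left out it was 0.35 and the gene was called (adjusted p 9.62e-04 by DESeq2). Of the 6 regulators, Myb, Bcl11b and Arpp21 had their cKO libraries above the WT libraries without overlap, an order that 24.9% of all genes showed. Tcf7 had them below, as did 24.0% of all genes.

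**Figure D2:**
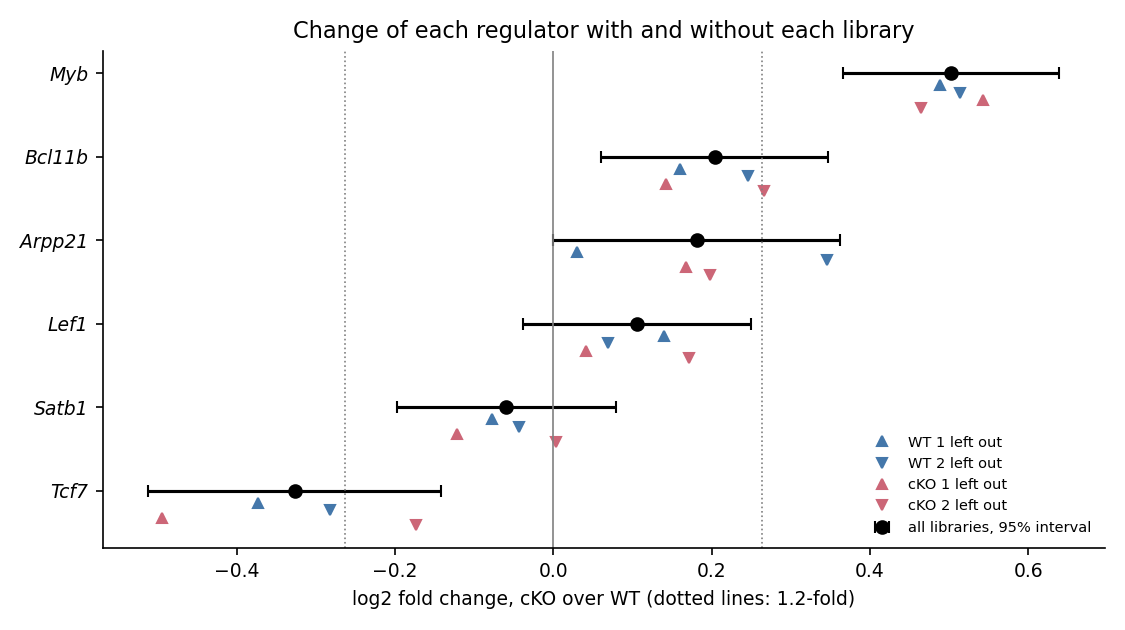
Log2 change of each regulator, cKO over WT, from the DESeq2 fit of all 4 libraries with its 95% interval, and the values with each library left out. Myb stayed between 0.46 and 0.54 whichever library was left out, Tcf7 ranged from -0.49 to -0.17 and Arpp21 from 0.03 to 0.35.

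Levels between genes were compared as CPM per kb of the deposited gene length, which covers introns. Over the 4 libraries Tcf7 was the highest at a mean of 120.8 CPM per kb, 1.92 times Satb1 at 62.9. Satb1 was 1.88 times Bcl11b at 33.5, and Bcl11b was 1.70 times Lef1 at 19.7. Lef1 and Myb, at 19.5 CPM per kb, had means close together over the 4 libraries, and their order differed by genotype. Lef1 was the higher in the WT libraries (19.5 and 18.4 CPM per kb, against 16.1 and 16.2 for Myb) and Myb in the cKO libraries (22.4 and 23.4, against 21.4 and 19.4 for Lef1), without overlap within either genotype. This order contains the change of Myb and was not tested on its own. Arpp21 was the lowest at 8.48 CPM per kb, and Myb was 2.30 times as high. Apart from Lef1 and Myb, no neighbours in this order overlapped between libraries. By CPM without length the 6 genes were among the 174 highest of the table, with Satb1 at place 2, Tcf7 7, Bcl11b 14, Lef1 20, Arpp21 56 and Myb 174.

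**Figure D3:**
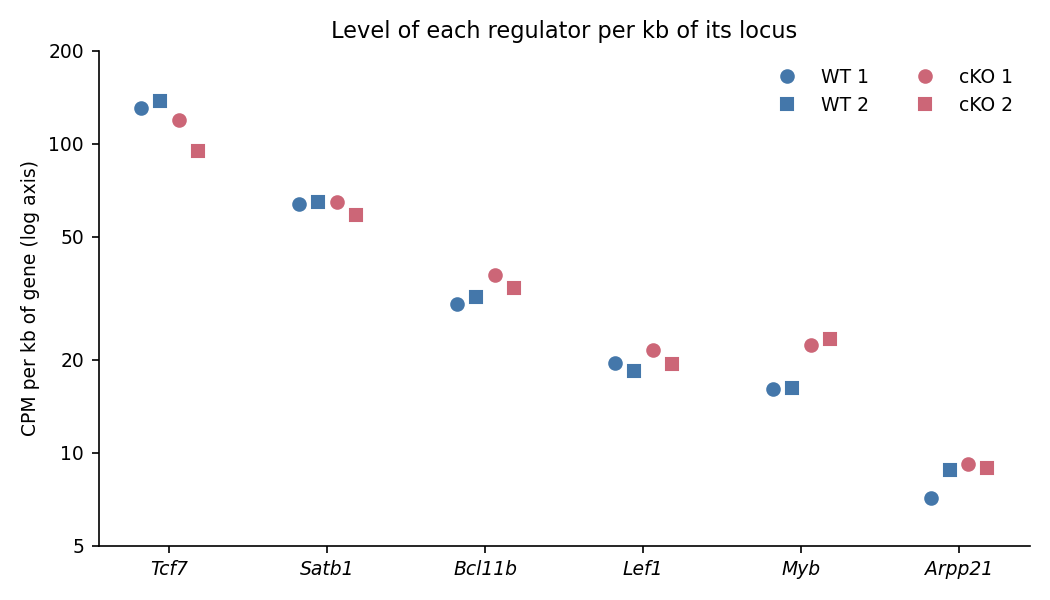
CPM per kb of deposited gene length for the 6 regulators in the 4 libraries, on a log axis. Tcf7 lies highest, around 120.8 CPM per kb, and Arpp21 lowest, around 8.48 CPM per kb, while Lef1 lies above Myb in the WT libraries and below it in the cKO libraries.

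**Figure D4:**
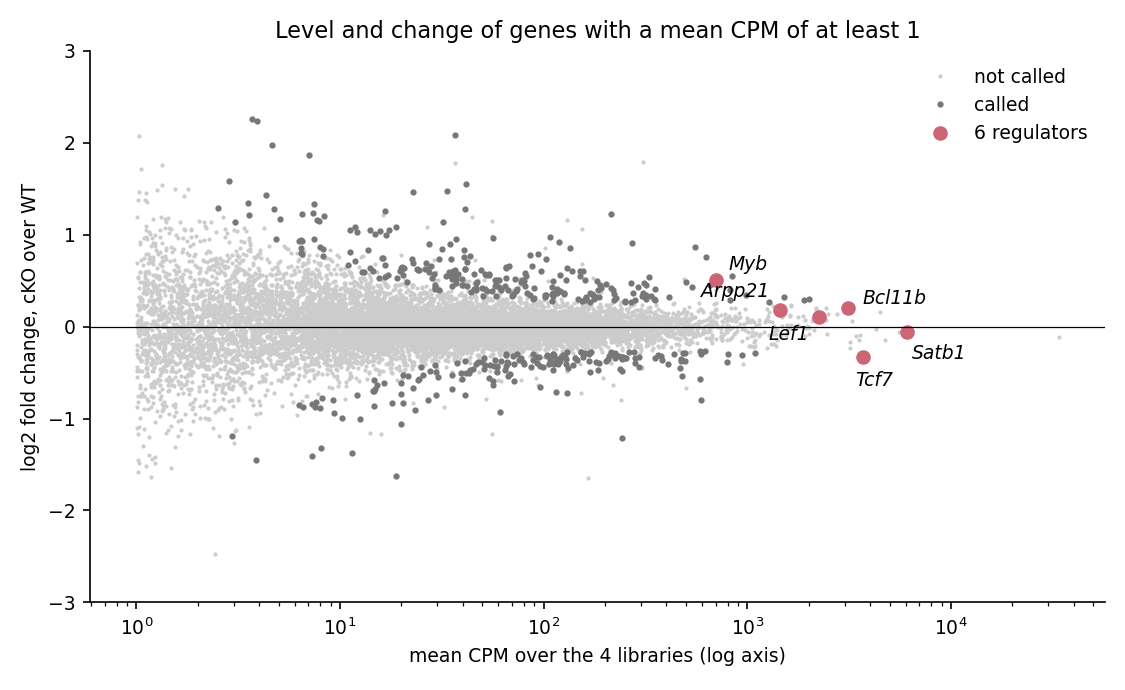
Mean CPM (log axis) against log2 change, cKO over WT, for the genes with a mean of at least 1 CPM, with the 6 regulators named; 2 genes lie beyond the vertical axis. The regulators lie at the right among highly transcribed genes, with Myb above and Tcf7 below the bulk of genes.

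The loci differed in make-up. Exons of the RefSeq transcripts covered 15.7% of the Tcf7 locus, 13.9% of Satb1, 11.8% of Arpp21, 10.5% of Myb, 10.4% of Bcl11b and 3.97% of Lef1, so most of each counted interval was intron. Thymidine on the coding strand, the position at which 4-thiouridine is built in, made up 23.9% of Tcf7, the lowest of the 6, and 31.1% of Satb1, the highest. The level per kb is not corrected for this share. The low-coordinate end of the RefSeq Tcf7 interval, the 3′ end of this minus-strand gene, lies at 52246527, beyond the deposited interval.

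The genes beside the regulators were compared from the same fit, and of the 10 with a mean of at least 1 CPM 0 were called by DESeq2, edgeR or limma voom. DESeq2 gave an adjusted p for 8 of them, and 2, Skp1a and Gm33619, had an unadjusted p under 0.05 by each tool. Skp1a, which encodes a subunit of SCF ubiquitin ligases, lies 5425 bp from the deposited interval of Tcf7 on the other strand. The longer RefSeq interval of Tcf7, which reaches 52246527, overlaps Skp1a, which ends at 52246858. Skp1a had 106, 95.3, 85.4 and 90.2 CPM in WT replicates 1 and 2 and cKO replicates 1 and 2. Both cKO libraries were lower, with a log2 change of -0.20 and an adjusted p of 0.308 by DESeq2. Ahi1, which lies 44501 bp from Myb, had 28.6, 38.2, 38.4 and 40.3 CPM in the same order of libraries. WT replicate 1 was the low library there, and the log2 change was 0.23 with an adjusted p of 0.528. Gm33619, nearer to Myb at 25960 bp, had 72, 46, 86 and 118 fragments. Both cKO libraries were higher per library total, with a log2 change of 0.99 (SE 0.478) that was not called: DESeq2 gave no adjusted p at this low count, edgeR gave 0.261 and limma voom 0.241. Setd3 beside Bcl11b changed by 0.06, Hadh beside Lef1 by -0.11 and Gm20098 beside Satb1 by 0.10 on the log2 scale, with adjusted p between 0.795 and 0.813 by DESeq2.

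The Arpp21 locus held 3 further rows of the table. The row of Mir128-2, on the strand of Arpp21, had 32.5, 54, 53.5 and 44 fragments. Fragments over this interval include those of the host transcript across the hairpin, and they do not measure the mature miR-128 printed above. On the other strand inside Arpp21, 2310075C17Rik had 0.276 CPM per kb in WT against 7.94 CPM per kb of its host. 2900079G21Rik, which overlaps the start of Arpp21 on the other strand, had 15.6, 21.2, 17.4 and 14.9 CPM and a log2 change of -0.19 (adjusted p 0.759 by DESeq2). The strand setting of the counting was not stated. GENCODE lists further transcripts over these loci without a row of their own in the table, such as Gm26551 on the strand of Tcf7, A630014C17Rik on the strand opposite Tcf7 and Gm26577 on the strand opposite Myb.

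Among paralogs of the 6 genes, 8 were tested and 1 was called, beside 3.71% of all genes. Mybl2, a MYB family gene of dividing cells, had WT values of 23.9 and 34.3 CPM and cKO values of 44.7 and 39.2 CPM. The cKO libraries were higher without overlap, with a log2 change of 0.52 (SE 0.164) and an adjusted p of 0.0375 by DESeq2. Its edgeR adjusted p among genes with a mean of at least 1 CPM was 0.223. Leaving out WT replicate 1 gave a log2 change of 0.28, and leaving out WT replicate 2 gave 0.82. Mybl2 was called in 7 of the 19 settings run, and not with the replicate number as a block or without WT replicate 1, cKO replicate 1 or cKO replicate 2. WT replicate 1, the lowest library of Mybl2, was also the lowest in the sum of proliferation genes, and the part of this was not tested. Of those 16 proliferation genes, 15 were higher in cKO and 0 passed by DESeq2, edgeR or limma voom, with 4, 4 and 5 at an unadjusted p under 0.05. Mybl1, the other paralog of Myb, had 4.27 to 5.33 CPM and a log2 change of 0.30 (adjusted p 0.736).

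Tcf7l2, a TCF/LEF family gene, had WT values of 345 and 463 CPM and cKO values of 559 and 596 CPM. The genotypes did not overlap and WT replicate 1 was again the lowest. The log2 change was 0.51 with an SE of 0.222, and the adjusted p of 0.216 by DESeq2 did not pass, while the gene was called in 7 of the 19 settings run. Leaving out WT replicate 1 gave Tcf7l2 a log2 change of 0.31, and leaving out WT replicate 2 gave 0.75. Tcf7l1 had 22.1 to 29.5 CPM and a log2 change of 0.01. R3hdm1 and R3hdm2, which share the R3H domain with Arpp21, had log2 changes of 0.08 and 0.04. Bcl11a was at 2.34 to 5.47 CPM, with WT replicate 1 the highest.

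Partners of the TCF/LEF factors did not pass the test. Of 18 such genes 17 were tested, 0 were called by DESeq2 (2 had an unadjusted p under 0.05), 0 by edgeR and 0 by limma voom among genes with a mean of at least 1 CPM, 7 were higher and 10 lower in cKO, and the median log2 change was -0.06. Ctnnb1, which encodes β-catenin, had WT values of 298 and 296 CPM and cKO values of 265 and 273 CPM. Its cKO libraries were lower without overlap, at a log2 change of -0.15 and an adjusted p of 0.348 by DESeq2. The corepressor gene Tle3 had a log2 change of -0.10 and the Wnt feedback gene Axin2 one of -0.08. Of the 10 NuRD genes that partner with BCL11B, 0 were called by DESeq2, edgeR or limma voom, 0 had an unadjusted p under 0.05 by any of these, and the median was 0.05, while the helicase gene Chd4 had a log2 change of -0.10 (adjusted p 0.647). Of the 4 MYB coactivator genes, 0 were called and 0 had an unadjusted p under 0.05 by the same tools, with a median of 0.00, Ep300 at 0.12 and Crebbp at -0.03.

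Of 26 other genes typical of DP cells, 2 rose and 2 fell, 14 were higher and 12 lower, and the median log2 change was 0.04. With genes under a mean of 1 CPM left out, edgeR and limma voom called 0 of the 26 (7 and 9 at an unadjusted p under 0.05). Tox, an HMG-box factor of CD4 lineage development, had WT values of 683 and 728 CPM and cKO values of 992 and 868 CPM, a log2 change of 0.39 (adjusted p 1.41e-04 by DESeq2). Bcl6, a transcriptional repressor, rose by 0.33 (adjusted p 0.0388 by DESeq2). Cd8a, which encodes the CD8 α chain, had WT values of 498 and 629 CPM and cKO values of 395 and 383 CPM, a log2 change of -0.54 (adjusted p 1.21e-05). Rag1, which encodes a subunit of the antigen receptor recombinase, changed by -0.31 (adjusted p 0.0499, at the threshold). Both increased genes had cKO libraries above the WT libraries, and both decreased genes had them below. These orders were shown by 24.9% and 24.0% of all genes, and they add nothing to the calls. Cd8a was called whichever library was left out, at -0.35 without WT replicate 2, and Tox was not called without cKO replicate 1. Bcl6 was at 0.18 without WT replicate 1, and Rag1 at -0.49 without WT replicate 1 but -0.12 without the other WT library. The E protein gene Tcf12 had WT values of 1227 and 1219 CPM and cKO values of 1450 and 1422 CPM, and its log2 change of 0.23 (adjusted p 0.0160 by DESeq2) was under the fold minimum. Ets1, Runx1 and Ikzf1, all of which encode factors of T cell development, had log2 changes of 0.16, 0.08 and -0.02 with no call.

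Among 9 tested genes that respond to selection signals, 2 rose and 2 fell, and the median log2 change was -0.22. Of all genes, 2.14% rose and 1.57% fell, and the list was chosen with earlier results known. With genes under a mean of 1 CPM left out, edgeR and limma voom each called 1 of them, Ikzf2. Ikzf2, which encodes the Ikaros family factor Helios, had WT values of 406 and 372 CPM and cKO values of 721 and 702 CPM, a log2 change of 0.87 (adjusted p 4.63e-28 by DESeq2). Tox, named above, is also on this list. The immediate early gene Egr1 had WT values of 19.1 and 16.9 CPM and cKO values of 10.6 and 11.5 CPM, a log2 change of -0.70 (adjusted p 0.00406). Ccr7, a chemokine receptor gene of maturing thymocytes, fell by 0.34 on the log2 scale (adjusted p 0.00714 by DESeq2). With each library left out in turn, Ikzf2 was called in all 4 fits, Ccr7 in 2 and Egr1 in 0. Of the mature single positive cell markers Klf2, S1pr1, Il7r, Ccr7, Zbtb7b and Runx3, Il7r and Runx3 rose by 0.36 and 0.42 and Ccr7 fell, with Il7r and Runx3 called in none of the 4 fits that leave out a library, and the sum of the 6 was 502 and 494 CPM in WT against 493 and 428 CPM in cKO. The part of mature cells in the results for the regulators was not tested.

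**Figure D5:**
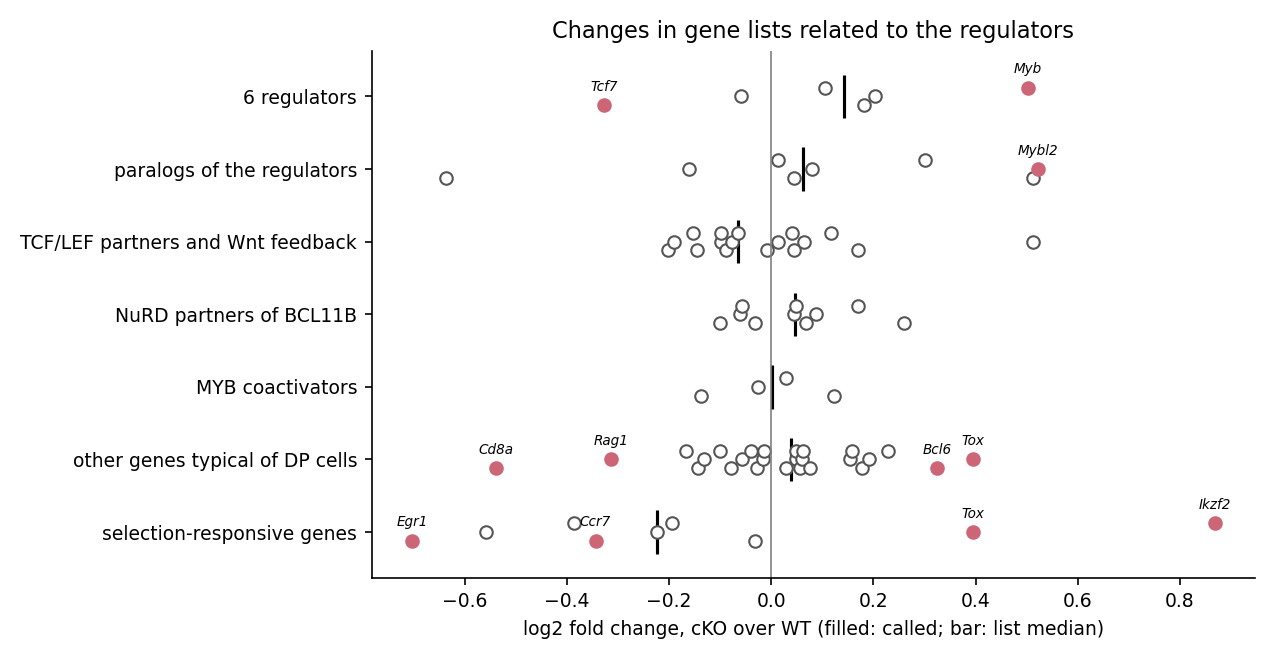
Log2 change, cKO over WT, of the tested genes of each list, with genes called by DESeq2 marked and the median of each list drawn. The medians of the lists run from -0.22 for selection-responsive genes to 0.14 for the 6 regulators, and Ikzf2 at 0.87 is the largest increase among the genes shown.

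By distance between profiles of log2 CPM over the 4 libraries, centred on their mean, the nearest of 4053 genes with a mean of at least 50 CPM were listed for each regulator. Nearest to Myb were Nr3c1, which encodes the glucocorticoid receptor, at a distance of 0.037, and Zfp438 at 0.057. Nr3c1 had WT values of 415 and 420 CPM and cKO values of 582 and 589 CPM, so it was low in both WT and high in both cKO libraries as Myb was. Nearest to Tcf7 were Rps15 at 0.016 and Junb at 0.062, both of them lowest in cKO replicate 2. Nearest to Arpp21 were Gfi1 at 0.015 and Zfp408 at 0.019, both lowest in WT replicate 1. Nearest to Lef1 were Swt1 and Rpa1, to Satb1 Dctn1 and Fbxl20, and to Bcl11b Foxn2 and Cmtm7. A likeness over 4 values is a description of these libraries.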

How the data were processed

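TTchem-seq libraries of DP thymocytes from WT and cKO mice (2 each, grouped by sample title) were analysed. Per the study's methods and the submitters' processing notes, the authors filtered reads with fastp 0.13.1 and aligned them with STAR 2.7.9a to GRCm38, the methods take gene counts from the STAR output, and the notes name featureCounts 1.6.1, so the counting step is not settled. The deposited table held expected counts per RefGene gene, that is fragments over the whole locus, with 8.61% of values fractional, and gene length in bp. How fractions were assigned is not given in the sources used here. Fragments over features that share sequence are therefore uncertain. The authors had added spike-in RNA of yeast, which was not used here for scaling.

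Counts were rounded and tested with DESeq2 1.42.0 (R 4.3.3), the tool the methods name for this assay. The Wald test, default size factors, no covariate and unshrunken log2 fold changes were chosen here. A call needed, as in the methods, a Benjamini-Hochberg adjusted p under 0.05, a change of 1.2-fold or more and a mean CPM (from the table totals) of 1 or more. Alternatives used edgeR 4.0.16 and limma 3.58.1, other scalings and filters, the replicate number as a block and leaving out each library. Intervals are 1.96 SE. Replicates differed by a chi-square of 40.7 (WT) and 30.7 (cKO) per degree of freedom over 11625 genes. Totals were 42626473, 48690591, 38429786 and 39760312 fragments, and without molecular identifiers fragments are not independent molecules.

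The regulators, lists, motifs and tests were chosen with earlier results of these data known. Named were the 6 regulators, Tox4, paralogs, neighbouring and overlapping rows, the 2 nearest profiles, and list genes that were called or bear on a regulator. Some genes of the lists are not reported here. The fits were tested on simulated data.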

Additional observations from a re-analysis of the deposited data

How the results depend on the processing

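Myb was called in 18 of 19 settings and kept its direction in all of them, the exception being a fold minimum of 1.5. Tcf7 kept its direction in all, and was called in 9 of 19. Its adjusted p missed the threshold with limma voom over all genes (0.168, log2 change -0.34). It also missed in settings added after seeing the data, among genes with a mean of at least 1 CPM. These were edgeR (0.237, log2 change -0.33), limma voom (0.192, log2 change -0.34) and edgeR with the replicate block (0.220, log2 change -0.34). Same-numbered libraries did not deviate together over genes (correlation of deviations -0.03). The labels do not say whether the replicate numbers mark a litter or batch, and this value cannot settle it. With the replicate block, Tcf7 was at -0.33 by DESeq2 (adjusted p 0.0950) and by edgeR (-0.33, adjusted p 0.0948) and missed the threshold, while Myb passed. The number of regulators called was 1 with limma voom over all genes, with the replicate block (DESeq2, edgeR, edgeR at a mean of at least 1 CPM), and with edgeR or limma voom at a mean of at least 1 CPM, and 0 at a fold of 1.5. With 1 library left out, log2 changes ranged from -0.49 to -0.17 for Tcf7, 0.04 to 0.17 for Lef1, -0.12 to 0.0038 for Satb1 (reversed without cKO replicate 2), 0.14 to 0.27 for Bcl11b, 0.46 to 0.54 for Myb and 0.030 to 0.35 for Arpp21, and 1 to 2 regulators were called.

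Calls among the TCF/LEF partners went from 0 to 1 (Tcf7l2) with edgeR over all genes, with every library required to reach a CPM of 1, and with the replicate block (DESeq2, edgeR, edgeR at a mean of at least 1 CPM). Calls among paralogs went to 2 with edgeR over all genes and with every library required to reach a CPM of 1, and to 0 with limma voom (both gene sets), independent filtering off, a fold of 1.5, edgeR at a mean of at least 1 CPM and the length trend removed. With the replicate block the paralog called was Tcf7l2 in place of Mybl2. Calls among genes typical of DP cells were 2 with independent filtering off and with the replicate block (DESeq2, edgeR), and 0 with limma voom (both), a fold of 1.5, and edgeR at a mean of at least 1 CPM with or without the replicate block. Calls among selection-responsive genes were 2 with the replicate block (DESeq2, edgeR) and at a fold of 1.5, and 1 with limma voom (both) and edgeR at a mean of at least 1 CPM with or without the replicate block. With 1 library left out these calls ranged from 0 to 1 (TCF/LEF partners), 0 to 2 (paralogs), 1 to 3 (DP genes) and 2 to 3 (selection-responsive genes). The NuRD median ranged from 0.011 to 0.086 with 1 library left out and was 0.018 with the length trend removed, a setting that gave -0.058 for the MYB coactivators. Without division by length, Satb1 took place 1, Tcf7 2, Arpp21 5 and Myb 6 in the order of levels. The cause of these moves was not tested.

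Over all genes, 249 increased and 182 decreased by DESeq2. The counts were 494 and 344 with edgeR over all genes, 64 and 22 with limma voom over all genes, 59 and 17 with edgeR and 57 and 16 with limma voom at a mean of at least 1 CPM, 121 and 72 (DESeq2), 104 and 53 (edgeR) and 67 and 29 (edgeR at a mean of at least 1 CPM) with the replicate block, and 106 and 44 at a fold of 1.5. Removing the length trend, a setting also added after seeing the data, gave 213 and 211. Leaving out WT replicate 1, WT replicate 2, cKO replicate 1 or cKO replicate 2 gave 113 and 71, 320 and 126, 78 and 48, and 61 and 28. Precision was limited by having 2 libraries per genotype.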
